A study of Mus musculus with 2 samples.

Results

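In mouse acute myeloid leukaemia cells, the 13 genes described here were read at 40 counts or more in the P2X1-KO-labelled library and at 2 counts or fewer in the WT-labelled library. They were Bcas1os2, Marco, Fabp7, Lilra5, Cmklr1, Elovl7, Emp1, Igf1, Pcdh7, Adamtsl5, Lingo1, Ube2ql1 and Bgn. The deposited table gave 46094 rows used here, and both thresholds were applied to its raw counts. The 2 thresholds alone took 28 rows. Of these, 15 were left out by symbol, namely 8 unnamed gene models and 7 named genes. The named ones were Col3a1, Col1a2, Angptl2, Cxcl14, Serpinb8 and Abcb1b, left out by the start of the symbol, and Cpa3, left out singly. Cpa3 had 166 counts in the P2X1-KO-labelled library and 1 in the other. The genes were chosen by the raw counts of both libraries, so their counts and folds below describe the choice and carry no test.

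RNA was sequenced from cells carrying Mac1 and KIT, sorted from leukaemic bone marrow, which the labels call leukaemia-initiating. Both groups were C57BL/6 mice with an age of 8 weeks, and there was 1 library for each of the genotypes wild type (WT) and P2x1-KO. The protocol text of the labels also calls the groups P2X1-Scr and P2X1-KD, and no choice between knockout and knockdown was made here. How the leukaemia was induced, how P2x1 was disrupted, and whether animals were pooled are not stated in the sources used here. P2X1 is a cation channel of the plasma membrane that opens when extracellular ATP binds to it. The comparison asks how the transcriptome of these cells changes without the receptor.

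Total counts were 14658620 in the WT-labelled library and 9447894 in the P2X1-KO-labelled library. P2rx1, the targeted gene, went against the label, with 27 counts in the WT-labelled library and 45 counts in the P2X1-KO-labelled library, a 2.93-fold higher level (exact 95% interval 1.78 to 4.90). Every direction below is therefore a difference between 2 labelled libraries. Kit had 207 and 177 counts and Itgam, which encodes the Mac1 alpha chain, had 4781 and 4481 counts, in the same order of libraries. Scaled for depth, both sort markers were higher in the P2X1-KO-labelled library, Kit 1.501-fold (1.22 to 1.84) and Itgam 1.65-fold (1.58 to 1.71). Rows with 1 or 2 counts made up 14.4% of detected rows in the WT-labelled library and 5.72% in the P2X1-KO-labelled library. A row was at 0 in the P2X1-KO-labelled library but read in the other in 4376 cases, and the reverse held for 716 rows. Folds are ratios of CPM, in which counts are put on a common library size, here with trimmed-mean (TMM) factors. With 1 library per group no difference has a replicate check, and intervals cover counting error only.

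The 13 genes fall into several roles. Macrophages, the tissue phagocytes of the myeloid lineage, take up particles through scavenger receptors such as MARCO, sense their surroundings through receptors such as CMKLR1, and can secrete the growth factor IGF1. Biglycan and the ADAMTS-like proteins belong to the extracellular matrix that stromal cells lay down. LINGO proteins and protocadherins are best known as surface and adhesion proteins of neurons, and FABP7 as a fatty acid carrier of glial precursors. Detection of a transcript in bulk RNA does not name the cell it came from, and a larger number of cells of a type cannot be told apart from more RNA per cell.

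Few genes met the thresholds in this direction. Among 9130 rows with at least 40 counts in the P2X1-KO-labelled library, after the same symbols were left out, the 13 made up 0.142%, or 0.265% (28 of 10553) with no symbol left out. With the libraries exchanged, 101 of 9783 rows did so, or 1.03%, and 143 of 11434, or 1.25%, with no symbol left out. The WT-labelled library was the deeper, so equal counts stand for unequal levels. With thresholds scaled to the ratio of totals, 18 rows (0.197%) had at least 40 counts in the P2X1-KO-labelled library and at most 2 counts' equivalent in the other, against 48 (0.519%) in the exchanged direction, which was added after seeing the data. No test of this difference is possible with 1 library per group.

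Of the 13 genes, 5 had 0 counts, 4 had 1 count and 4 had 2 counts in the WT-labelled library. Their counts in the P2X1-KO-labelled library ran from 40 to 129, with a median of 55. The groups of values did not overlap, as the rule requires. At equal CPM the WT-labelled library would have held between 70.2 counts for Bgn and 226 counts for Bcas1os2. All 13 together took 834 counts, or 0.00883% of the P2X1-KO-labelled library (exact 95% binomial interval 0.00824 to 0.00945), and 12 counts of the other library.

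Other genes lay close to both thresholds. Just inside the count minimum lay Bgn with 40 counts against 1 and Ube2ql1 with 42 against 0, and just outside lay BB031773 with 38 against 1. At the other threshold Elovl7, Emp1, Adamtsl5 and Lingo1 had the maximum of 2 counts in the WT-labelled library. With 3 counts there, C1qa (116 counts in the P2X1-KO-labelled library), Ankrd66 (73), Etv4 (64), Adrb1 (45) and Scin (42) fell outside.

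**Figure D1:**
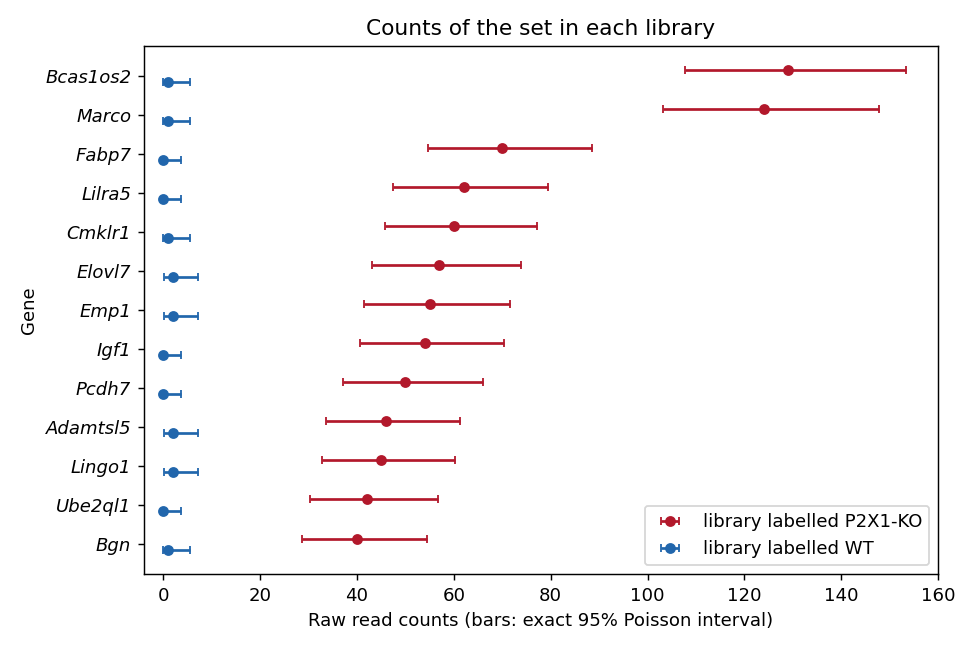
Raw read counts of the 13 genes (x axis) in the P2X1-KO-labelled library (red) and the WT-labelled library (blue), 1 library each, with exact 95% Poisson intervals as bars. The red points lie between 40 and 129 counts and the blue points between 0 and 2.

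**Figure D2:**
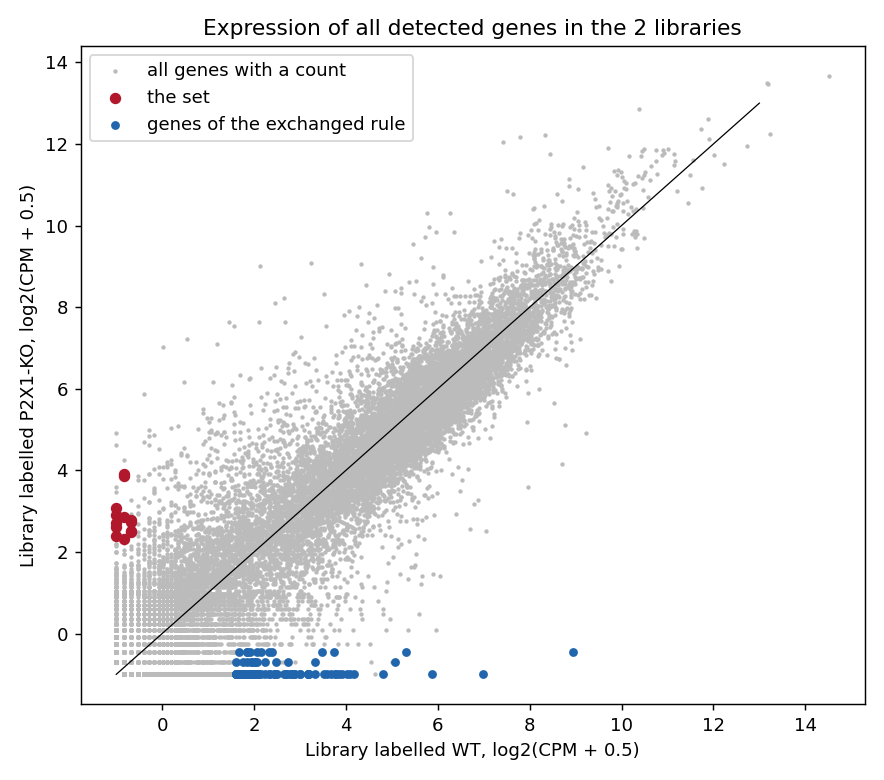
Each point is a gene, at log2(CPM + 0.5) in the WT-labelled library (x axis) and in the P2X1-KO-labelled library (y axis), with the line of equal levels. The 13 genes (red) sit at the left edge, and the 101 genes of the exchanged rule (blue) sit along the bottom and reach higher levels.

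Marco, Lilra5 and Cmklr1 encode surface receptors of myeloid cells. Marco, the macrophage receptor with collagenous structure that binds bacteria and inhaled particles, had 124 counts in the P2X1-KO-labelled library and 1 in the WT-labelled library. That is 13.96 CPM against 0.0641 CPM, a ratio of 218 (38.4 to 8665). Lilra5, an activating receptor of the leukocyte immunoglobulin-like family, had 62 counts and 0. Against a floor of 3 counts in the WT-labelled library it was 36.3-fold higher (lower bound of the exact interval 28.6). Cmklr1, the G protein-coupled receptor for the chemoattractant chemerin, had 60 counts and 1, a ratio of 105 (18.2 to 4228). The upper bounds are wide because 1 count stands in the denominator. Marco lies on chromosome 1, bases 120474538 to 120505024, minus strand (mm10, GENCODE M21), Lilra5 on chromosome 7, bases 4237754 to 4243463, plus strand, and Cmklr1 on chromosome 5, bases 113612354 to 113650426, minus strand. The 250 bases before the RefSeq start (GRCm38.p6) are shown for these receptors. Marco holds no CG dinucleotide there, and only Cmklr1 holds one of the motifs searched, CACGTG, in capitals. The windows are chr1:120505025-120505274 on the minus strand, chr7:4237504-4237753 on the plus strand and chr5:113643604-113643853 on the minus strand, with 0, 5 and 5 CG.
Marco: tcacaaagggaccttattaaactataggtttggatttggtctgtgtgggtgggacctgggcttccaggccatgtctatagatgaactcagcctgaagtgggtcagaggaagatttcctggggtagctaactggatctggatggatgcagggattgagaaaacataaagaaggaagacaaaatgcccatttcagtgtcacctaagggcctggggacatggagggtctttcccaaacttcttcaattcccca
Lilra5: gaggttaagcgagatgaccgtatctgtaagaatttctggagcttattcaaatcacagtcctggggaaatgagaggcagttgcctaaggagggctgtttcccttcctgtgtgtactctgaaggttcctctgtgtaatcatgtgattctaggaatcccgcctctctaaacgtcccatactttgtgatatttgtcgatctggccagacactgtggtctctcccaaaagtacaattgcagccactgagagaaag
Cmklr1: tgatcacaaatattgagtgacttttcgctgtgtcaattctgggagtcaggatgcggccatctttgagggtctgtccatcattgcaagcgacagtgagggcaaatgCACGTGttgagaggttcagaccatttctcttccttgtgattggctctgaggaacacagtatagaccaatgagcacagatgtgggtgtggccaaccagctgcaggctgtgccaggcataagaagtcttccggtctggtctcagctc

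The relatives of Marco and Lilra5 that were read stood in the same direction. For reading these counts, 2073 of 13381 genes averaging 1 CPM or more over both libraries were 2-fold or more higher in the P2X1-KO-labelled library (15.5%) and 1870 2-fold or more lower (14.0%). Of the other class A scavenger receptors, Msr1 had 340 counts against 23, 25.9-fold higher (17.0 to 41.5), and Colec12 had 343 against 31, 19.4-fold higher (13.4 to 29.0). Scara3 and Scara5 were at 0 in both libraries. All 8 relatives and adaptors of Lilra5 were 2-fold or more higher. Among them Lilra6 was 22.6-fold higher (16.3 to 32.4) and Pirb, an inhibitory paired receptor, 8.98-fold higher (8.20 to 9.84). Fcer1g, the adaptor through which activating receptors of this family signal, was present in both libraries at 1074 and 279 CPM, a 3.85-fold difference (3.71 to 3.99). The Pira genes and Lilra6 are near-identical copies, so their separate values are uncertain, and Lilra5 may have exchanged reads with them.

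The chemerin system was otherwise sparse. Rarres2, which encodes chemerin itself, had 18 counts in the P2X1-KO-labelled library and 8 in the other, 3.95-fold higher (1.63 to 10.5). Ccrl2, an atypical chemerin-binding receptor, had 70 and 97 counts, or 7.88 and 6.22 CPM, within 2-fold. Gpr1, another chemerin receptor, was at 0 in both libraries.

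Secreted and matrix proteins made up another 3 of the genes. Igf1, insulin-like growth factor 1, had 54 counts in the P2X1-KO-labelled library and 0 in the WT-labelled library. It was 31.6-fold higher against the floor of 3 counts (lower bound 24.8). Adamtsl5, a secreted ADAMTS-like protein without a protease domain, had 46 counts and 2, a ratio of 40.4 (10.6 to 343). Bgn, encoding the small leucine-rich proteoglycan biglycan, had 40 counts and 1, a ratio of 70.2 (11.9 to 2842). Igf1 lies on chromosome 10, bases 87858265 to 87937042, plus strand, Adamtsl5 on chromosome 10, bases 80339110 to 80348412, minus strand, and Bgn on chromosome X, bases 73483602 to 73495933, plus strand. The Bgn promoter (chrX:73483351-73483600, plus strand) is shown because CCGCCC, in capitals, occurs 3 times in the 34 bases before its start.
Bgn: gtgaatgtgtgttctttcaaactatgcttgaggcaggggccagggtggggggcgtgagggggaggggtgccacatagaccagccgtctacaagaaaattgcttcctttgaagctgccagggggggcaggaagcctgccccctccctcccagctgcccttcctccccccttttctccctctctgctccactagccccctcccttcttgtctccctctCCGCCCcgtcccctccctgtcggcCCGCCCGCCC

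The Igf1 system differed in both directions. Igf1r, the receptor, had 1747 counts in the P2X1-KO-labelled library and 1226 in the other, 2.50-fold higher (2.32 to 2.69). Igf2r, the scavenging receptor for IGF2 and for mannose 6-phosphate proteins, had 48 and 1602 counts, 19.0-fold lower (14.3 to 25.9). Igfbp4, a secreted binding protein, was 3.39-fold lower (3.19 to 3.60), at 141 and 477 CPM. Insr and Igfals lay within 2-fold, and the other 7 listed genes were at 0 or below an average of 1 CPM. Igf2 was among these, with 5 and 7 counts.

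The relatives of Bgn and Adamtsl5 were read unevenly. Dcn and Lum, the proteoglycans closest to biglycan in role, were at 0 in both libraries, Fmod had 7 counts and 0, and Aspn 0 and 1. Of the ADAMTS-like genes, Adamtsl4 was 3.12-fold higher in the P2X1-KO-labelled library (2.63 to 3.70) and Adamtsl3 4.39-fold higher (2.04 to 10.2). Adamtsl1 and Adamtsl2 were at 0 in both, and Thsd4 had 0 and 5 counts.

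Fabp7 and Elovl7 act on fatty acids. Fabp7, the brain-type fatty acid-binding protein, had 70 counts in the P2X1-KO-labelled library and 0 in the WT-labelled library. It was 41-fold higher against the floor of 3 counts (lower bound 32.4). Elovl7, an elongase of long-chain fatty acids in the endoplasmic reticulum, had 57 counts and 2, a ratio of 50.03 (13.2 to 423). Fabp7 lies on chromosome 10, bases 57784881 to 57788450, plus strand, and Elovl7 on chromosome 13, bases 108214404 to 108285683, plus strand. The Fabp7 promoter (chr10:57784673-57784922, plus strand) is shown because the gene's neighbours also differed, as given below, and none of the motifs searched lies in it, so no base is in capitals.
Fabp7: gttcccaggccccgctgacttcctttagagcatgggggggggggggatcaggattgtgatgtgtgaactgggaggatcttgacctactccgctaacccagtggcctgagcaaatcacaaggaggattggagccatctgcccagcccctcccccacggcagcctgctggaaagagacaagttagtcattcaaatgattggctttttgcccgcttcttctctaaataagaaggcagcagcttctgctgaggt

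The other members of both lipid families were read unevenly. Fabp5 had 39 and 49 counts, within 2-fold, and Fabp4, the adipocyte and macrophage form, had 26 and 7 counts, 6.52-fold higher in the P2X1-KO-labelled library (2.76 to 17.8). Fabp1, Fabp2, Fabp3, Fabp6 and Fabp9 were at 0 in both libraries, and Fabp12 had 0 and 6 counts. Among the elongases, Elovl1 (155 and 117 CPM) and Elovl5 (78.2 and 41.8 CPM) lay within 2-fold, Elovl5 at 1.87-fold higher (1.68 to 2.09). Elovl2 had 0 counts and 13 in the WT-labelled library, Elovl4 had 0 and 1, and Elovl3 was at 0 in both. Elovl6, which elongates palmitate, was 7.41-fold lower (4.58 to 12.7), with 18 counts in the P2X1-KO-labelled library and 234 in the other.

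Pcdh7 and Lingo1 encode adhesion or surface proteins best known from neurons. Pcdh7, a protocadherin, had 50 counts in the P2X1-KO-labelled library and 0 in the WT-labelled library. It was 29.3-fold higher against the floor of 3 counts (lower bound 22.9). Lingo1, a partner of the Nogo receptor with leucine-rich repeats, had 45 counts and 2, a ratio of 39.5 (10.3 to 336), the lowest lower bound of the 13 genes. Pcdh7 lies on chromosome 5, bases 57717967 to 58133230, plus strand, and Lingo1 on chromosome 9, bases 56618475 to 56796468, minus strand.

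The relatives and partners of these proteins were mostly unread. Lingo2, Lingo4, Rtn4r, Ngfr and Tnfrsf19 were at 0 in both libraries, while Rtn4, the gene of Nogo, was within 2-fold at 93.3 and 62.4 CPM. Lingo3 had 0 counts in the P2X1-KO-labelled library and 5 in the WT-labelled library. Of 8 other delta protocadherins, 4 were at 0 in both libraries and 4 were below an average of 1 CPM, the highest count being 14 for Pcdh11x in the WT-labelled library.

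The remaining genes share no role with each other. Emp1, a tetraspan membrane protein, had 55 counts in the P2X1-KO-labelled library and 2 in the WT-labelled library, a ratio of 48.3 (12.7 to 409). Its relative Emp3 was read in both, at 380 and 141 CPM, 2.70-fold higher (2.56 to 2.85), whereas Pmp22 was 1.97-fold lower (1.41 to 2.82). Ube2ql1, a protein related to ubiquitin-conjugating enzymes, had 42 counts and 0. It was 24.6-fold higher against the floor of 3 counts (lower bound 19.1, the smallest among genes at 0). Ube2q1 and Ube2q2 were nearly level, at 195 and 216 CPM and at 38.3 and 34.4 CPM. Emp1 lies on chromosome 6, bases 135362545 to 135383173, plus strand and Ube2ql1 on chromosome 13, bases 69702832 to 69739889, minus strand. Their promoters (chr6:135362681-135362930, plus strand, and chr13:69739898-69740147, minus strand) are shown because they differ in CG dinucleotides, with 3 and 24, and hold different motifs. The capitals mark TGACTCA on the opposite strand in Emp1 and CCGCCC in Ube2ql1. Past its start, outside the bases shown, Emp1 also holds CCGCCC, and another Emp1 window holds none of the motifs searched.
Emp1: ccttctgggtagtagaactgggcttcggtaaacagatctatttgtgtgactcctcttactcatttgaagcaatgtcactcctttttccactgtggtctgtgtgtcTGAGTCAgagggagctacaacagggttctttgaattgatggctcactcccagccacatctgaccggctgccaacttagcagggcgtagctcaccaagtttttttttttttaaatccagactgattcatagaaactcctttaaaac
Ube2ql1: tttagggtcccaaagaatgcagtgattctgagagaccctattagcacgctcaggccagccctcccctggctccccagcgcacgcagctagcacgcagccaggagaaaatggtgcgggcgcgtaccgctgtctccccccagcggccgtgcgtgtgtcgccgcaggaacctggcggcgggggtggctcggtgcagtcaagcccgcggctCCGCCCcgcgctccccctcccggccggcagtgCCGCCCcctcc

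Bcas1os2, a noncoding RNA annotated on the strand opposite to Bcas1, had the most counts, 129 in the P2X1-KO-labelled library and 1 in the WT-labelled library, a ratio of 226 (39.9 to 9012). It lies on chromosome 2, bases 170356361 to 170380435, plus strand. Its exons share 34 bases with those of Bcas1. Bcas1 had 86 counts and 81, 1.86-fold higher (1.36 to 2.56). Whether the counting used strand is not stated in the sources used here, so reads in the shared bases cannot be assigned with certainty. That stretch is a small part of the 1174 exon bases of Bcas1os2.

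**Figure D3:**
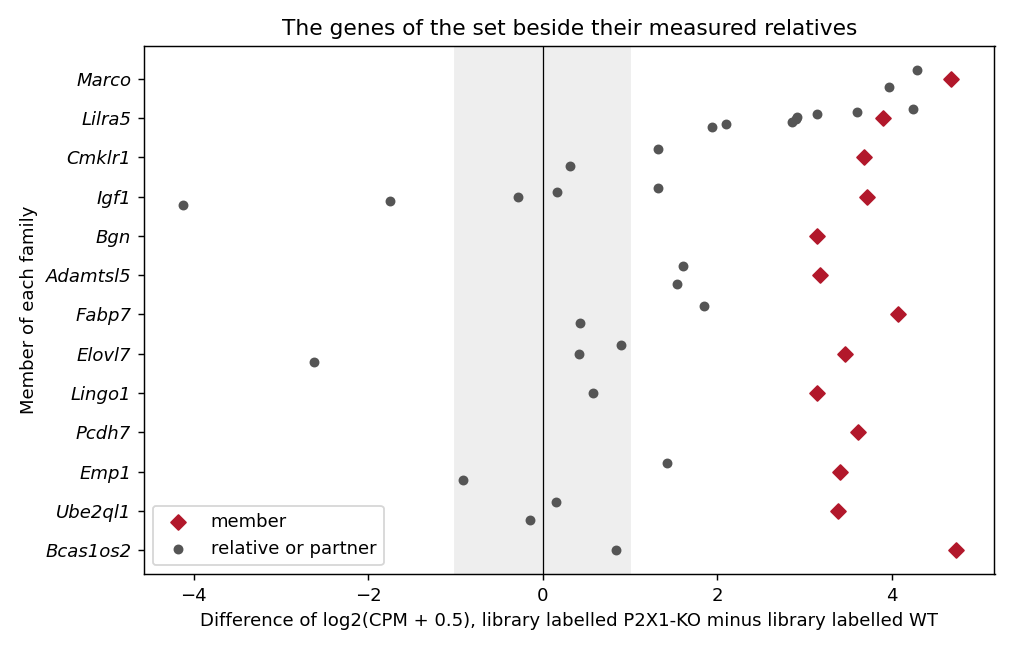
Difference of log2(CPM + 0.5), P2X1-KO-labelled library minus WT-labelled library (x axis), for each of the 13 genes (red diamonds) and its relatives or partners averaging 1 CPM or more (grey points), 1 family per line, with the grey band marking a difference of at most 1. Relatives of Marco, Lilra5 and Adamtsl5 all lie to the right of the band, and those of Igf1 lie on both sides and inside. Those of Cmklr1, Fabp7 and Emp1 lie to the right or inside, and those of Elovl7 to the left or inside. Those of Lingo1, Ube2ql1 and Bcas1os2 lie inside, and Bgn and Pcdh7 have none at that level.

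Over all families, 71 relatives and partners were listed after the 13 genes were known. Of these, 25 were at 0 in both libraries and 16 were below an average of 1 CPM. Among the 30 measured, 16 were 2-fold or more higher in the P2X1-KO-labelled library, 3 2-fold or more lower and 11 within 2-fold. Of the 16 higher, 10 belonged to the families of Marco and Lilra5. The other families had 6 of 20 measured genes higher and 3 lower. Among the higher, Rarres2, Adamtsl3 and Fabp4 had 0.513, 0.641 and 0.449 CPM in the WT-labelled library. They reached the average of 1 CPM only through the P2X1-KO-labelled library. Over all genes at that level 15.5% were higher. The relatives were chosen with the 13 genes known, so the shares allow no comparison.

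Per exon length most of the genes were low in the library that held them. Levels are given as CPM per kb of merged exons in the P2X1-KO-labelled library. Bcas1os2 was highest at 12.4 CPM per kb, above 58.2% of the genes with at least 40 counts there. Marco followed at 7.25, Fabp7 at 6.30 and Lilra5 at 3.31 CPM per kb, above 42.8%, 38.7% and 21.6% of those genes. Igf1 at 0.614 and Pcdh7 at 0.531 CPM per kb were lowest, above 0.826% and 0.527% of them. The other 7 genes lay between 0.738 CPM per kb for Bgn and 1.98 for Cmklr1. Counting intervals of neighbours in this order overlapped for 10 of 12 pairs and did not for Bcas1os2 and Marco or for Fabp7 and Lilra5.

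**Figure D4:**
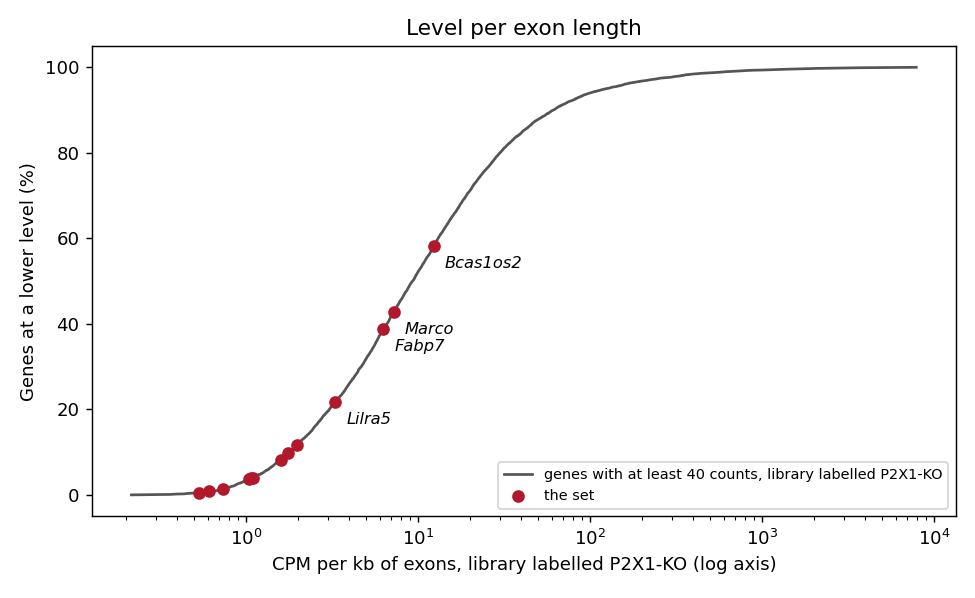
Cumulative share of genes with at least 40 counts in the P2X1-KO-labelled library (grey line, y axis in percent) by CPM per kb of exons (x axis, log scale), with the 13 genes as red points. All but Bcas1os2 lie in the lower part of the curve, at or below 42.8%.

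Exon length and GC content were not used by the rule. The median exon length of the 13 was 4013 bases and their median GC content 48.0%, against 4316 bases and 49.8% for genes with at least 40 counts in the P2X1-KO-labelled library. Of the 13, 12 are annotated as protein-coding. Exon lengths ran from 1174 bases for Bcas1os2 to 10604 bases for Pcdh7.

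The genes were scattered over 9 chromosomes, and none was the nearest protein-coding neighbour of another. Of the 26 nearest protein-coding genes on either side, 15 were below an average of 1 CPM. Of the other 11, 3 were 2-fold or more higher in the P2X1-KO-labelled library, 8 within 2-fold and 0 lower. Over all genes at that level 15.5% were higher and 14.0% lower, and 11 genes are too few to set apart from these shares. Both neighbours of Fabp7 were among those higher. Smpdl3a, an acid sphingomyelinase-like phosphodiesterase gene that begins 5.885 kb from it, had 2860 counts against 1109 (log2 difference 2.17). Pkib, encoding an inhibitor of protein kinase A, ends 43.8 kb from it and had 183 against 49 (log2 difference 2.53). The remaining one, Depdc1b beside Elovl7, was past 2-fold in CPM, with a difference of 0.98 in log2(CPM + 0.5), and lay within 2-fold when total counts set the scale.

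Overlap with other annotated genes was limited. Of the 13, 5 overlap a gene on the opposite strand, and for 2 of these, Bcas1os2 and Pcdh7, exon bases are shared. Pcdh7 shares 2235 with 4932441J04Rik, which was at 0 in both libraries.

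Promoter windows of 300 bases, 250 before and 50 after each RefSeq start, were found for all 13 genes, with 15 windows in all. CCGCCC, searched on both strands, was found in 7 of 15 windows (46.7%), against 35.7% of all 32851 windows of that length and 62.9% of those of genes with at least 40 counts in the P2X1-KO-labelled library. TGACTCA was found in 1 window, belonging to Emp1, against 5.20% of all windows, and CACGTG in 1, that of Cmklr1, against 7.15%. The other 4 motifs were found in 0 of 15 windows. Of all windows, 13.6% hold TATAAA, 7.44% hold GATAAG, 3.20% hold GAGGAAGT and 0.183% hold the palindrome TTGCGCAA. The median number of CG dinucleotides per window was 9 for the 13 genes, 7 for all windows and 21 for genes read at least 40 times. A match gives the letters only, and the small number of windows sets wide limits on each share.

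Among marker lists of 17 cell types, 2 held a gene of the set, Marco for macrophages and Bgn for fibroblasts and matrix. Without Marco, all 18 macrophage markers averaging 1 CPM or more were 2-fold or more higher in the P2X1-KO-labelled library, with a median log2 difference of 3.17, against -0.06 over all 13381 genes at that level. Of the 18, C1qa, C1qb, C1qc, Trem2, Maf, Axl, Fcna and Siglec1 were below 1 CPM in the WT-labelled library. They reached that average only through the P2X1-KO-labelled library, so the filter set their direction. The others, Csf1r among them, were above 1 CPM in both libraries. C1qb, a complement component gene, had 278 counts against 5, and Csf1r, the receptor of macrophage colony-stimulating factor, 3510 against 634. The summed level of the 30 listed markers was 4055 CPM in the P2X1-KO-labelled library and 475 CPM in the WT-labelled library. Vsig4 and Timd4, markers of resident macrophages, were at 0 in both libraries, and Cd163, Mrc1, Arg1 and Folr2 had 0 counts in the P2X1-KO-labelled library against 6, 3, 2 and 1. With no filter on low counts, 21 of 26 listed markers, Marco included, were higher and 4 lower. Some other lists moved the same way and some did not, where 15.5% of all genes at that level were higher and 14.0% lower. Of 28 late neutrophil granule and receptor genes, 23 were 2-fold or more higher and 0 lower, with a median log2 difference of 2.17 and a summed level of 30043 against 5889 CPM. Fpr1, a receptor for bacterial formyl peptides, had 513 counts against 4. Of measured osteoclast markers 4 of 5 were higher, and of eosinophil, basophil and mast cell markers 5 of 9, with 0 lower in either. Mmp9 is on both the osteoclast and the neutrophil list. Of epithelium markers 3 of 5 and of skeletal muscle markers 3 of 4 were higher, with 0 lower. At a mean of at least 5 CPM, 1 of 3 epithelium markers and 1 of 1 skeletal muscle markers were higher. Marrow reticular cell and adipocyte markers had 3 of 4 higher and 1 lower, smooth muscle and pericyte markers 1 of 5 higher and 3 lower. Of the higher markers in these lists, Fpr1, Mrgpra2a, Ctsk, Prg2, Cpa3, Ear2, Epcam, Cdh1 and Fabp4 were below 1 CPM in the WT-labelled library. They reached the average only through the P2X1-KO-labelled library, which set their direction, and Cpa3 also met both thresholds of the rule. Rgs5, among the lower, reached it only through the WT-labelled library. Endothelium had 3 of 9 higher and 2 lower, B and plasma cells 3 of 7 and 2, and dendritic cells 2 of 4 and 1. Bone and cartilage had 1 of 5 higher and 1 lower, and T and NK cells 1 of 4 and 1. Megakaryocyte and erythroid lists had 0 higher and 0 lower. When total counts set the scale, 3 osteoclast and 2 skeletal muscle markers were higher. The part of macrophage or neutrophil content in the counts of Marco, Cmklr1, Lilra5 and Igf1 was not tested.

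Markers of fibroblasts and matrix moved less uniformly. Without Bgn, 11 of 23 measured fibroblast and matrix markers were 2-fold or more higher and 3 2-fold or more lower, with a median log2 difference of 0.64. Of the higher, Sparc, Thbs2, Prrx1, Gas1 and Mmp2 reached an average of 1 CPM only through the P2X1-KO-labelled library. Of the lower, Svep1 and Thy1 reached it only through the WT-labelled library. The filter therefore set the direction of these genes. At a mean of at least 5 CPM, 3 of 9 were higher and 2 lower. The summed level of all 70 was 2511 CPM in the P2X1-KO-labelled library and 982 CPM in the other, but 662 and 801 CPM without Fn1, the fibronectin gene. The defining markers Dcn, Lum and Pdgfra were at 0 in both libraries, while Sparc had 36 counts against 0 and Thbs2 31 against 0. In the other direction, Svep1 had 0 counts against 192, Fap 0 against 17 and Thy1 6 against 33. The fibrillar collagen genes Col3a1 and Col1a2, which met both thresholds and were left out by symbol, had 264 and 213 counts against 0. Of neurons and glia, given because Lingo1 and Pcdh7 are best known from neurons, 0 of 4 measured markers were 2-fold or more higher and 0 lower. The summed level of all 15 was 185 and 168 CPM, most of it from Ncam1 and Mbp, and Syt1, Snap25, Stmn2, Sox10 and Gfap were at 0 in both libraries. The cells were sorted for Mac1, a leukocyte integrin, and KIT. The part of stromal content in the counts of Bgn and Adamtsl5 was not tested.

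**Figure D5:**
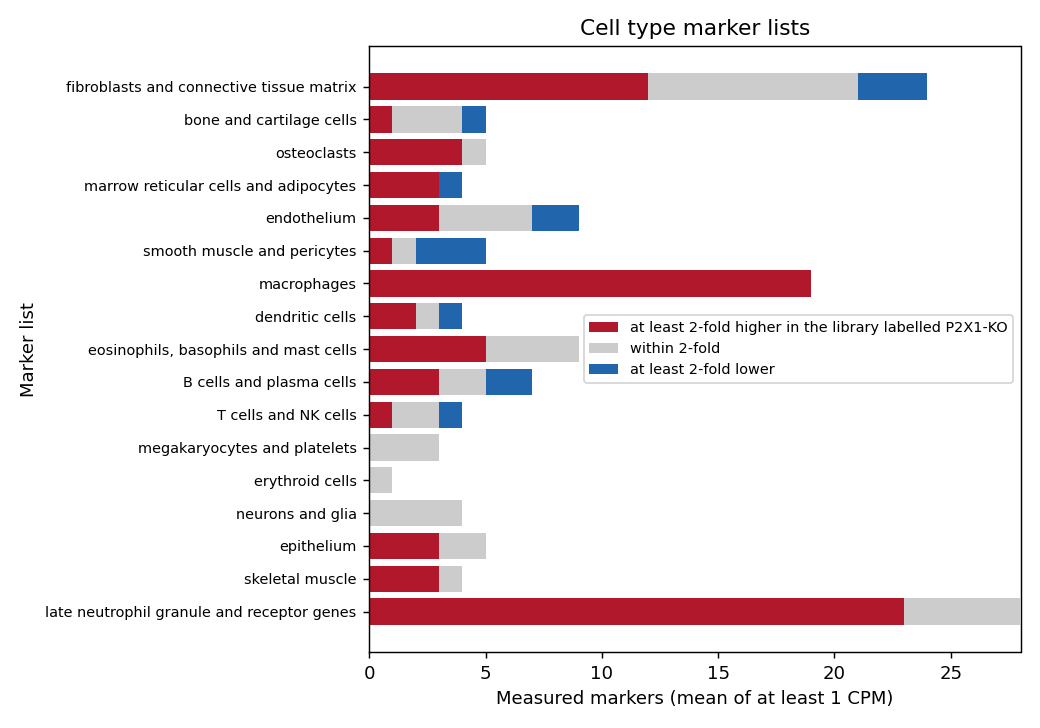
Number of markers of each of 17 lists averaging 1 CPM or more (x axis), split into those 2-fold or more higher in the P2X1-KO-labelled library (red), within 2-fold (grey) and 2-fold or more lower (blue). All 19 measured macrophage markers, Marco included, and 23 of 28 late neutrophil genes are red, the fibroblast and matrix list holds all 3 colours, and 0 of 4 for neurons and glia are red. A marker below 1 CPM in 1 library reached the average only through the other, which set its direction.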

How the data were processed

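The table that the authors deposited gives raw read counts for each gene symbol in each library. The aligner was HISAT2 2.0.4 and the build mm10, per the submitters' processing notes. The counter, annotation and strand setting are not stated in the sources used here. Sizes were scaled by TMM in edgeR 4.0.16 (R 4.3.3). Folds are CPM ratios with exact 95% Clopper-Pearson intervals given the summed counts, and a count of 0 was set at a floor of 3 counts. No p-value was computed. A row of the table that met the rule is not reported here and enters no count, although totals and scaling used the whole table. The interval step was tested on simulated data. A log2 difference uses a pseudocount of 0.5 CPM, which understates differences of low genes. Coordinates and exon lengths came from GENCODE M21 (mm10) and promoters from RefSeq (GRCm38.p6). GC content is that of the longest transcript. The members, marker lists, relatives and alternatives were chosen with earlier results of these data known. Named genes were P2rx1, Kit, Itgam, the members, their neighbours, relatives and list markers, and the rows nearest the thresholds. Markers and relatives given as examples were picked after their values were seen. Alternatives covered the thresholds, symbols left out, scaling (DESeq2 1.42.0 size factors among them), floor, window and filters.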

Additional observations from a re-analysis of the deposited data

How the results depend on the processing

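The number of genes depended on the thresholds. It was 5 with at most 0 counts in the WT-labelled library, 33 with at most 5, 37 with at least 20 counts in the P2X1-KO-labelled library, and 2 with at least 80. It was 28 with no symbol left out and 8 without genes that overlap another on the opposite strand. The members' share of the P2X1-KO-labelled library was 0.00294%, 0.0302% and 0.0233% with at most 0 counts, at most 5 counts and no symbol left out. The median fold over the 13 was 40.96, with counts of 0 set at the floor of 3 counts. It lay between 36.2 and 43.4 under other scalings and was 87.8 with a floor of 1 count. Under all 4 scalings the lowest lower bound was that of Lingo1, from 9.12 to 10.9. Of measured fibroblast and matrix markers 3 were 2-fold or more higher at a mean of at least 5 CPM and 26 with no filter, where fewer or more genes were tested. No paired analysis was possible because each group has 1 library, and no library could be left out.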
